A study of Homo sapiens with 6 samples.

Results

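The Arp2/3 complex is a stable assembly of the actin-related proteins ACTR2 and ACTR3 with the ARPC subunits. It binds the side of an existing actin filament and starts a new filament there, which gives the branched networks of lamellipodia and invadopodia. The complex is inactive until a nucleation promoting factor binds it. WASL, also called N-WASP, does so downstream of the GTPase CDC42, and WASF2, also called WAVE2, downstream of RAC. MYO10 is a motor protein that moves to the tips of filopodia, protrusions of bundled, unbranched actin.

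The group described here was a list of genes by name, chosen with earlier results of these data known. It held 10 listed genes, namely ACTR2, ACTR3, ARPC1A, ARPC1B, ARPC2, ARPC3, ARPC5, ARPC5L, WASL and WASF2. Each probe set reads 1 stretch of transcript with several short oligonucleotides, and those annotated to a listed symbol alone were taken. Of the listed genes, 9 had such a probe set, among 19775 genes that did in the whole series. They had 25 probe sets in all, and ACTR2 was not analysed here. The paralogs ARPC1A and ARPC1B, and likewise ARPC5 and ARPC5L, are alternative forms of the same subunit.

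The samples were 6 preparations of MDA-MB-231, an established human breast cancer line of the triple-negative, mesenchymal type, 1 array each. Of these, 3 carried a stable shRNA against MYOSIN10 (current symbol MYO10) and 3 a stable scramble shRNA, a hairpin without that target. All 6 thus carried an shRNA construct, and untreated cells were not analysed here. The labels do not say whether samples of 1 group came from separate cultures or infections, how many hairpins were used, or whether the lines were clones or pools. The p-values therefore rest on the spread among these samples alone, and that spread may be technical. In RNA from whole cultures, fewer cells with a transcript and less of it per cell cannot be told apart.

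Values are log2 of the MAS5 signal after 16 was added, and a difference is MYOSIN10 shRNA minus scramble shRNA on that scale, which understates the change of dim probe sets. A probe set is called when its Benjamini-Hochberg adjusted p from limma, over all 33370 probe sets kept by the filter on dim signals, lies under 0.05. Arrays carry no read depth, and their number limits the precision. The markers fixed for this line (VIM, CAV1, CD44, AXL and EGFR) lay between 11.9 and 14.9, while the brightest probe set of each of 6 low markers (ERBB2, ESR1, PGR, CDH1, ESRP1, GRHL2) and of 4 markers of blood, endothelium and liver lay between 4.10 and 9.11 on all arrays. The highest of these values was that of ERBB2. The ratio of 3' to 5' signal of ACTB ran from 1.29 to 1.43 over the arrays, with overlap between the groups. Scramble array 2 had a mean correlation of 0.9774 with the other scramble arrays, slightly below its 0.978 with the knockdown arrays. Every other array correlated better with its own group, and all pairs of arrays lay between 0.973 and 0.982. The target, MYO10, stood at 11.8 ± 0.21 (SD, n = 3) with scramble shRNA and at 10.91 ± 0.42 (SD, n = 3) with MYOSIN10 shRNA in its brightest probe set, 54.2% of the scramble level (limma adjusted p = 0.0318). Of its 5 probe sets 4 stood lower and 1 was called.

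The stretches of genome just before the start sites of WASL, ARPC1A and ARPC3 are shown, because WASL and ARPC1A had the smallest p among brightest probe sets and ARPC3 alone among them was higher. Each is the 250 bases before the RefSeq start in GRCh38.p14, read 5′ to 3′ on the gene's strand. Capitals mark GC boxes (GGGCGG, or CCGCCC on the other strand) and CCAAT boxes (CCAAT, or ATTGG on the other strand).
WASL, chr7:123749004-123749253, minus strand: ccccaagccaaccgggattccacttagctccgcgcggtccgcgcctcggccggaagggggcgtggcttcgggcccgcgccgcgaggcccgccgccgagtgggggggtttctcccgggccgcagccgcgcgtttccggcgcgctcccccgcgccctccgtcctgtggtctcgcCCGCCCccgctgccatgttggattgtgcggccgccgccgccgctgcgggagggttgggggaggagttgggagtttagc
ARPC1A, chr7:99325648-99325897, plus strand: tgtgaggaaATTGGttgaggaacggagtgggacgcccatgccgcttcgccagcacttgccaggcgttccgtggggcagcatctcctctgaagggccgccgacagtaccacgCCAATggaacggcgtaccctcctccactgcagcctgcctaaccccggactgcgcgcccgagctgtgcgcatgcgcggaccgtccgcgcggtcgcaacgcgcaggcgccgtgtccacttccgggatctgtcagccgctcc
ARPC3, chr12:110450338-110450587, minus strand: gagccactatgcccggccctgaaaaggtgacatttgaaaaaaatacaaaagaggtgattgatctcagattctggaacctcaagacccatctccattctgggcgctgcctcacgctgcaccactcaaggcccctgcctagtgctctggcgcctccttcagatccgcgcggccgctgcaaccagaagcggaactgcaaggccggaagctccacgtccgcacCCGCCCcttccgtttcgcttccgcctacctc
The WASL window held 1 GC box and 0 CCAAT boxes, the ARPC1A window 0 and 2, and the ARPC3 window 1 and 0. Among the 8 listed genes with an entry, ACTR2 included, 11 start windows were given, of which 9 held a GC box and 4 a CCAAT box. Some windows of ACTR3 and those of ARPC2 overlap in part, and a GC box of ARPC2 is counted in each of its windows. The 11 are thus not separate observations. Over all 35116 windows of the same length, 42.6% held a GC box and 32% a CCAAT box. A TATA box, searched as TATAAA or TTTATA, was in 0 of the 11 windows and in 10.7% of all windows. Such matches describe the letters of these windows and were not tested against the signals.

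No probe set of the complex or its activators was called, although most of their signals stood lower with MYOSIN10 shRNA. Of the 25 probe sets, 24 passed the filter on dim signals and 1 of WASL did not. Limma called 0 of the 24, against 1.06% of all kept probe sets. At an unadjusted p under 0.05 there were 5 of 24, all of them lower, against 6.44% of all probe sets for that direction and 13.2% for either. They belonged to ACTR3 (2 probe sets), ARPC1A, ARPC1B and WASL. The 3 knockdown arrays lay wholly below the 3 scramble arrays for 8 of the 24, against 8.94% of all, and wholly above them for 0. For either direction the share over all probe sets was 18.1%. Bright probe sets reached these marks more often. Among the 8146 kept probe sets with a mean of at least 10, 805 were lower at an unadjusted limma p under 0.05. For either direction 19.5% had such a p. Of the 8146, 12.4% lay wholly below and 24.4% were apart in either direction. Of the 20 member probe sets that bright, 4 had such a p and 6 lay wholly below. Differences were negative for 21 of 24, against 50.3% of all kept probe sets, and their median was -0.099, against -0.0020 over all. Several of the 24 read the same gene, so they are not 24 separate observations. The members were also chosen with earlier results of these data known, so these counts describe the group and do not test it. Counted by the brightest probe set of each gene, 8 of 9 differences were negative, with a median of -0.039, against 0.0093 over all genes counted so.

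**Figure D1:**
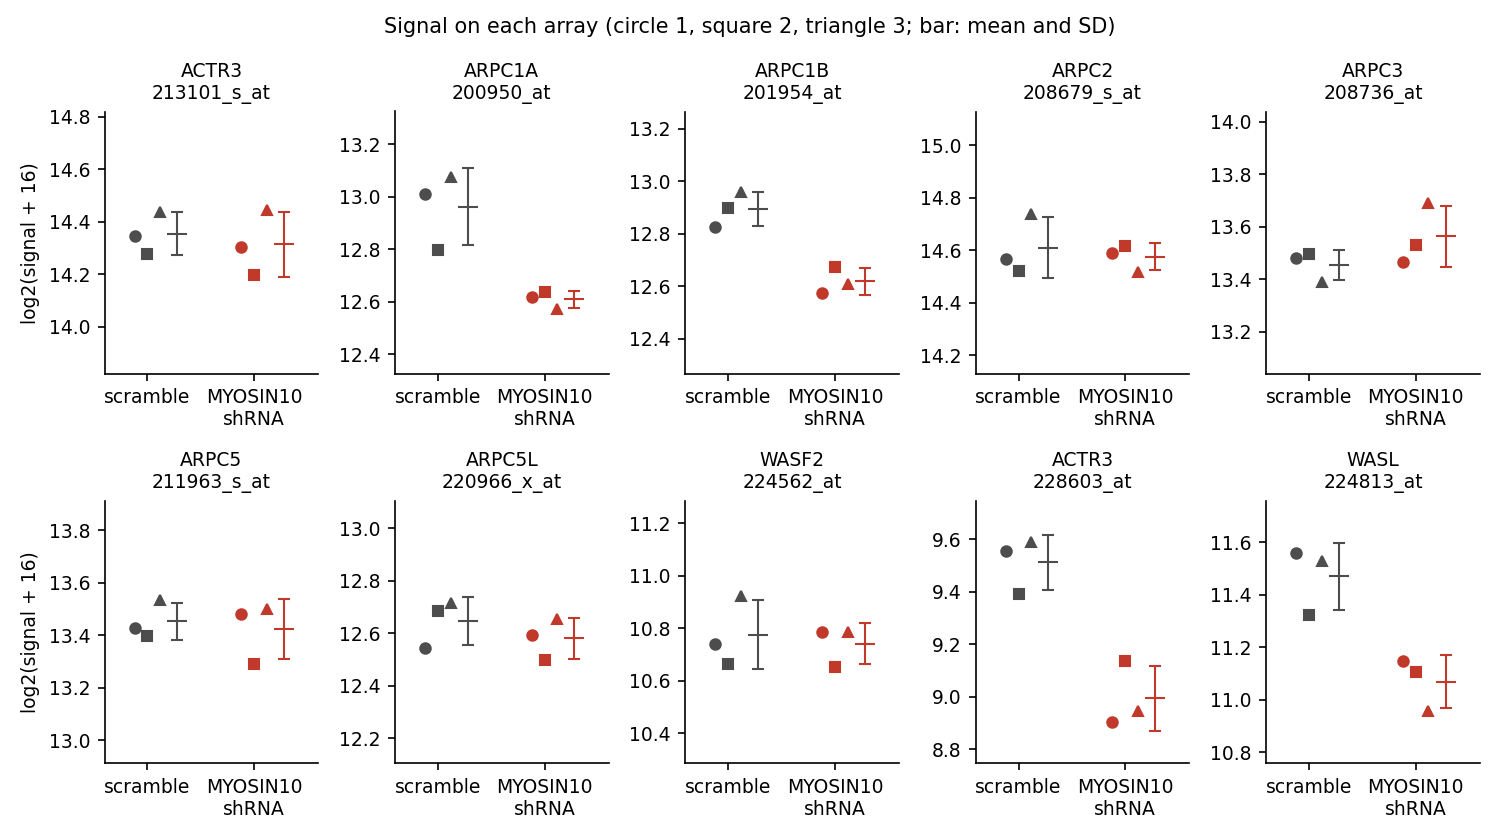
Signals, as log2(signal + 16), of the brightest probe set of each of the 9 measured genes and of a dimmer ACTR3 probe set, on the 3 scramble arrays (grey) and the 3 MYOSIN10 shRNA arrays (red). Every panel spans 1 log2 unit, and bars give mean and SD. The groups are apart for ARPC1A, ARPC1B, WASL and the dimmer ACTR3 probe set and overlap in the other panels.

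The 18 probe sets of the 7 measured subunit genes on the list had a median difference of -0.060. The subunits ARPC4 and ACTR2 are not among them. As a median deviation from each probe set's own mean over the 6 arrays, the 18 stood at 0.032, 0.056 and 0.088 on scramble arrays 1 to 3 and at -0.056, -0.093 and 0.012 on knockdown arrays 1 to 3. The same median over all kept probe sets lay between 0.0019 and 0.032 and was highest on scramble array 1. With it subtracted, a step chosen after seeing the data, scramble array 1 stood at -0.00059 and knockdown array 3 at 0.0070, so that the groups, apart before this step, overlapped. Without knockdown array 3 the median difference was -0.10. The listed subunits are bright in this line, and 12 of their probe sets had a mean of at least 12, a level chosen after seeing the data. Of these 12, 11 had negative differences, against 43.9% of all probe sets that bright.

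The actin-related proteins form the start of the daughter filament. ACTR3 was the gene with most probe sets, and they disagreed. Its brightest probe set read 14.35, 14.28 and 14.44 on scramble arrays 1 to 3 and 14.3, 14.2 and 14.44 on knockdown arrays 1 to 3. The groups overlapped, and the difference was -0.039 ± 0.077 (SE, limma adjusted p = 0.884; 95% interval -0.21 to 0.13). The next, 200996_at, gave -0.049.
The third, 213102_at, read 13.58, 13.67 and 13.48 with scramble shRNA and 13.3, 13.38 and 13.33 with MYOSIN10 shRNA. Here the groups were apart, and the difference of -0.24 ± 0.072 (SE) did not pass (limma adjusted p = 0.154). The fourth, 228603_at, much dimmer, read 9.55, 9.39 and 9.59 against 8.90, 9.14 and 8.94. It had the largest difference of all 24 at -0.52 ± 0.12 (SE, limma adjusted p = 0.0644; 95% interval -0.78 to -0.26), 69.8% of the scramble level. The dimmest, 239170_at, gave 0.0058 with a wide interval from -0.46 to 0.47.

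Within each array the gap between 228603_at and the brightest ACTR3 probe set was compared, a choice made after the values were seen. It lay between -4.88 and -4.79 on the scramble arrays and between -5.50 and -5.06 on the knockdown arrays. The groups did not overlap (exact permutation test, two-sided, p = 0.1, the smallest that 3 against 3 allows, and 0.2 adjusted over 2 such comparisons). Since the brightest probe set differed by only -0.039, this gap largely restates the difference of 228603_at. Only 228603_at and 213102_at were so compared, both already seen to be apart, and the adjustment does not cover that choice. The same gap for 213102_at differed by -0.20 with overlap (exact permutation p = 0.2). Where on the transcript each probe set lies was not examined.

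ARPC1A and ARPC1B are the alternative forms of the subunit that contacts the activators, and each had 1 probe set. That of ARPC1A read 13.01, 12.8 and 13.08 on scramble arrays 1 to 3 and 12.62, 12.64 and 12.57 on knockdown arrays 1 to 3. The 3 knockdown arrays agreed closely and lay below all scramble arrays, of which array 2 was nearest. The difference was -0.35 ± 0.084 (SE), 78.3% of the scramble level (limma adjusted p = 0.0717; 95% interval -0.53 to -0.17).
ARPC1B read 12.83, 12.9 and 12.96 with scramble shRNA and 12.57, 12.68 and 12.61 with MYOSIN10 shRNA. The groups were again apart. Its difference was -0.28 ± 0.073 (SE), 82.5% of the scramble level (limma adjusted p = 0.103). The balance of ARPC1B to ARPC1A within an array, as a difference of log2 signals, differed by 0.076 between the groups (exact permutation test, two-sided, p = 0.4; adjusted over the 3 balances compared, 0.6). Without scramble array 2 it differed by 0.16.

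The remaining listed subunits showed small differences. ARPC2, the large subunit of the complex's core that grips the mother filament, read 14.57, 14.52 and 14.74 with scramble shRNA and 14.59, 14.62 and 14.52 with MYOSIN10 shRNA in its brightest probe set. These overlap, with a difference of -0.035 (95% interval -0.19 to 0.12). Its other probe sets stood at -0.14 (213513_x_at, no overlap, limma adjusted p = 0.407) and -0.099.
ARPC3, a small subunit with 1 probe set, read 13.48, 13.49 and 13.39 against 13.47, 13.53 and 13.69. It was the gene whose brightest probe set stood higher with MYOSIN10 shRNA, by 0.11 ± 0.076 (SE, limma adjusted p = 0.602), and the groups overlapped.

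ARPC5 and its paralog ARPC5L are the alternative forms of the complex's smallest subunit. The brightest ARPC5 probe set differed by -0.030 (95% interval -0.20 to 0.14), and the 2 others by -0.027 and, for the dimmest, -0.099. The brightest ARPC5L probe set differed by -0.067 (95% interval -0.24 to 0.10), and the 3 others ranged from -0.22 (223101_s_at) to 0.016. Leaving out scramble array 1 moved 223101_s_at to -0.36, and leaving out scramble array 2 moved it to -0.086. Their limma adjusted p-values ran from 0.509 upward, and the groups overlapped in all 7 probe sets. The balance of ARPC5L to ARPC5 moved by -0.037 (exact permutation test, two-sided, p = 0.6; adjusted, 0.6), and it turned to 0.0090 without scramble array 2. The intervals leave room for differences in either direction, and they do not show that the levels were alike.

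**Figure D2:**
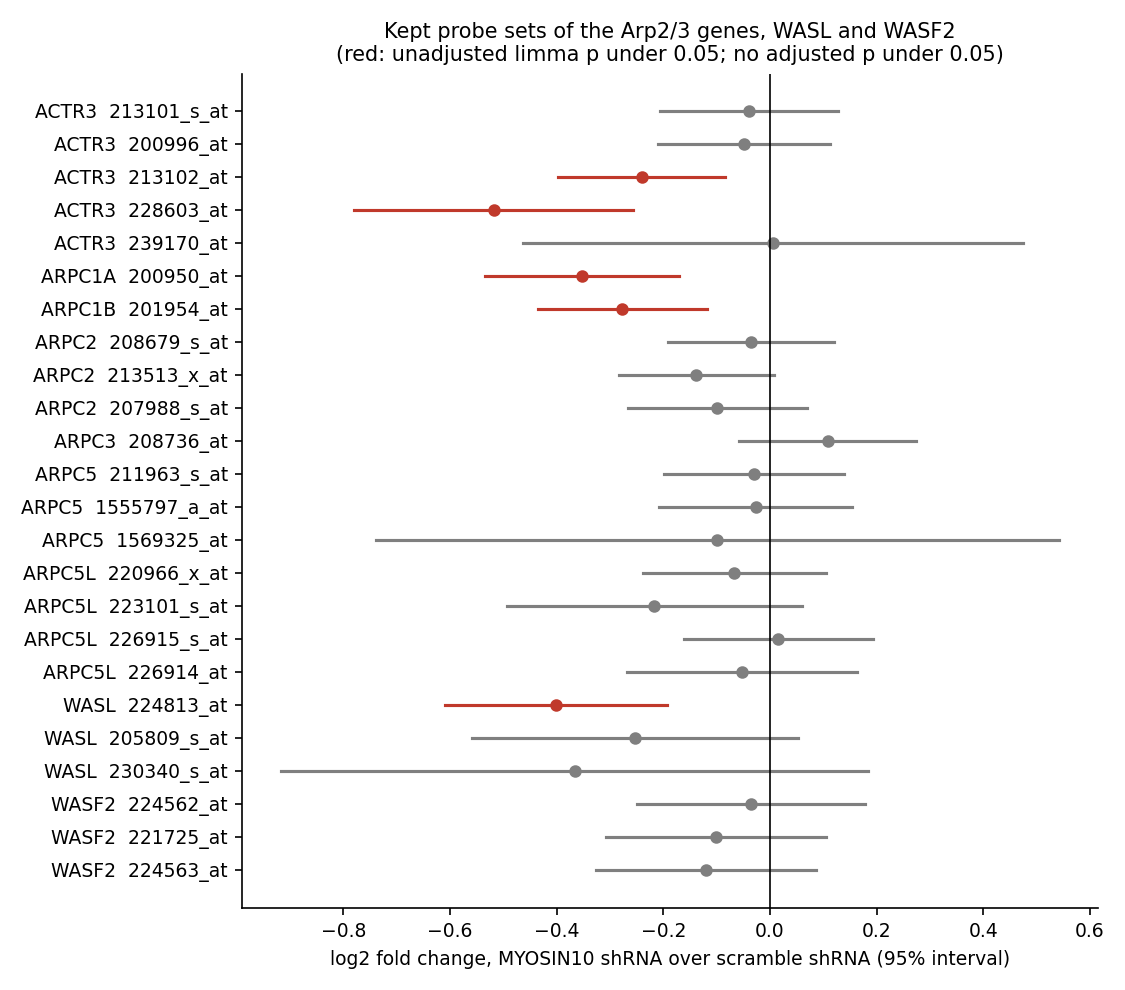
Difference between the groups, MYOSIN10 shRNA over scramble shRNA on the log2 scale, for the 24 kept probe sets, as a point with its 95% interval from limma. The 5 red intervals (unadjusted p under 0.05) lie wholly below 0, and the 3 points to the right of 0 belong to ACTR3, ARPC3 and ARPC5L.

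WASL opens on binding CDC42 and phosphoinositides and then hands actin monomers to the complex. Its brightest probe set, 224813_at, read 11.56, 11.32 and 11.53 on scramble arrays 1 to 3 and 11.15, 11.11 and 10.96 on knockdown arrays 1 to 3. The groups were apart, with scramble array 2 again the lowest of its group. The difference was -0.40 ± 0.096 (SE), 75.7% of the scramble level (limma adjusted p = 0.0732; 95% interval -0.61 to -0.19).
The second WASL probe set, 205809_s_at, read 10.11, 10.42 and 10.35 against 9.72, 10.21 and 10.19. Here the groups overlapped, and the difference was -0.25 ± 0.14 (SE, limma adjusted p = 0.48). Without knockdown array 1 it was -0.092. The dim 230340_s_at stood at -0.37, without overlap, but with an interval from -0.92 to 0.18. The fourth, 205810_s_at, had a mean of 4.71 in both groups, below the filter, and was not tested.

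WASF2 drives lamellipodia as part of the WAVE complex, and its 3 probe sets stood at -0.035, -0.10 and -0.12 (limma adjusted p from 0.655 to 0.924). The brightest read 10.74, 10.66 and 10.92 with scramble shRNA and 10.79, 10.65 and 10.78 with MYOSIN10 shRNA, with overlap. The dimmest, 224563_at, showed no overlap at a difference of -0.12. The balance of WASL to WASF2 within an array was 0.82, 0.66 and 0.61 with scramble shRNA and 0.36, 0.46 and 0.17 with MYOSIN10 shRNA. It was thus lower on every knockdown array, by -0.37 on average (exact permutation test, two-sided, p = 0.1, the smallest possible, and 0.3 adjusted). The brightest WASF2 probe set differed by only -0.035, so this balance largely restates the difference of the brightest WASL probe set. With the second brightest probe set of each gene the balance moved by -0.15, with overlap (exact permutation p = 0.7).

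Members were called in some other fits. Without scramble array 2, limma called ARPC1A (-0.44, adjusted p = 0.00713), WASL (-0.48, adjusted p = 0.0134) and the ACTR3 probe set 228603_at (-0.58, adjusted p = 0.0226), while 4.39% of all kept probe sets were called. Without any 1 of the other 5 arrays, limma called 0 of the 24, in fits that called between 0.177% and 0.806% of all kept probe sets, and the adjusted p of these 3 lay between 0.0657 and 0.298.

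**Figure D3:**
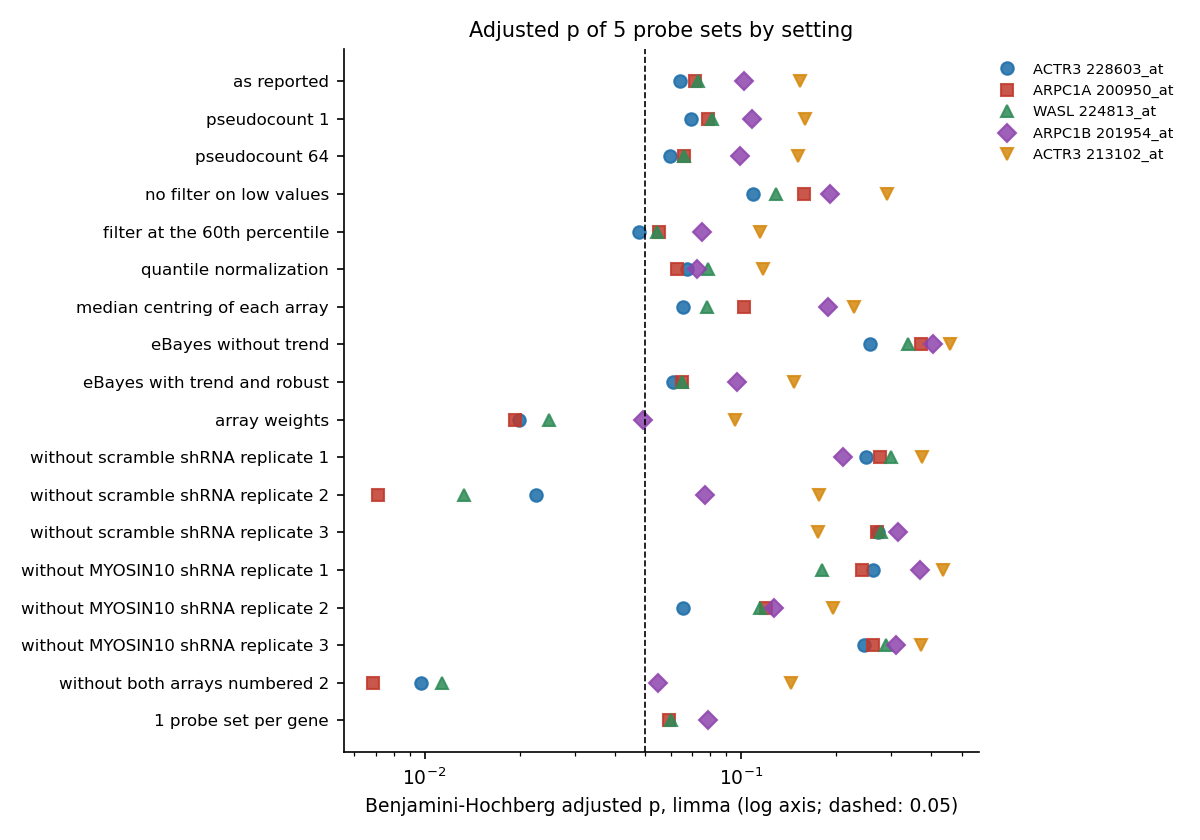
Benjamini-Hochberg adjusted p from limma (log axis) of the 5 probe sets with the smallest p, as reported and under other settings, 1 row each. Points left of the dashed line at 0.05 are calls. ARPC1A, WASL and ACTR3 228603_at lie there without scramble array 2, without both arrays numbered 2 and with array weights, ARPC1B with array weights, and ACTR3 228603_at also with the stricter filter. The setting with the replicate block, which called 4 members, is not drawn.

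The genes around the complex were read from 6 lists drawn from general knowledge, 48 measured genes in all. By the brightest probe set of each gene, limma called 0 in the fit over all kept probe sets, against 1.06% of these. An unadjusted p under 0.05 was found for 5 of the 48, against 13.2% of all kept probe sets, and 4 of the 5 were lower, against 6.44%. Those shares count dim probe sets and several per gene, and at a mean of at least 10 the share for either direction was 19.5%. Over all 101 probe sets of the 48 genes 0 were called and 12 had an unadjusted p under 0.05, 8 of them lower and 4 higher. The higher ones read CORO7, CTTN (0.54), CORO1C (0.33) and the dim WIPF1 (1.05), while another CTTN probe set stood at -0.52. The groups were apart in both of these CTTN probe sets and in that of CORO1C, and they overlapped for CORO7 and WIPF1. These probe sets were named after their values were seen.
Of the 3 further subunit genes, ACTR3B, a paralog of ACTR3, stood at -0.27 ± 0.11 (SE, limma adjusted p = 0.29), lower without overlap. ARPC4 stood at -0.16 with overlap. The dim ACTR3C stood at 0.53 (limma adjusted p = 0.398), higher without overlap.
Among 9 other activators and their partners, with a median of -0.10, WASF3, the WAVE3 protein, came closest to the threshold. It read 10.11, 9.80 and 10.13 with scramble shRNA and 9.47, 9.52 and 9.43 with MYOSIN10 shRNA. The groups were well apart, at -0.54 ± 0.12 (SE, limma adjusted p = 0.0505), 68.8% of the scramble level. WASF3 was called without scramble array 2 (limma adjusted p = 0.00537) and in the fit with 1 probe set per gene (limma adjusted p = 0.0434), which called 1.62% of all genes. The dim WAS stood at -0.55 (limma adjusted p = 0.315), and its other probe set at 0.30.

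In the WAVE complex, which holds WASF proteins inactive until RAC binds, 6 genes had a median of 0.0058, with BRK1 at -0.19 and the dim CYFIP2 at -0.31 (limma adjusted p = 0.418 and 0.796). In the list of the endosomal WASH complex and its capping proteins, 7 genes had a median of -0.14. CAPZB, which caps filament ends, had the smallest p of this list. All 3 of its probe sets were lower without overlap, at -0.20, -0.19 and -0.19 (limma adjusted p from 0.297 to 0.375). They read 1 gene, so they are not 3 separate observations. Of all kept probe sets with a mean of at least 10, 12.4% lay wholly below. WASHC5 stood at -0.35 (limma adjusted p = 0.385).
The 13 adaptors and GTPases upstream had a median of 0.067, with BAIAP2, an adaptor that bends membranes, at 0.38 and RAC3 at -0.30 (limma adjusted p = 0.446 and 0.47). CDC42, the activator of WASL, stood at -0.083 in its brightest probe set (limma adjusted p = 0.732). Its other probe sets, from brightest to dimmest, stood at -0.050, 0.080, -0.15 and -0.072. The groups overlapped in all of these, and CDC42 was chosen after its values were seen. The 10 inhibitors and debranching genes had a median of -0.0065, with the dim coronin CORO7 at 0.78 and GMFB, which unbinds branches, at -0.13 (limma adjusted p = 0.322 and 0.52).

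**Figure D4:**
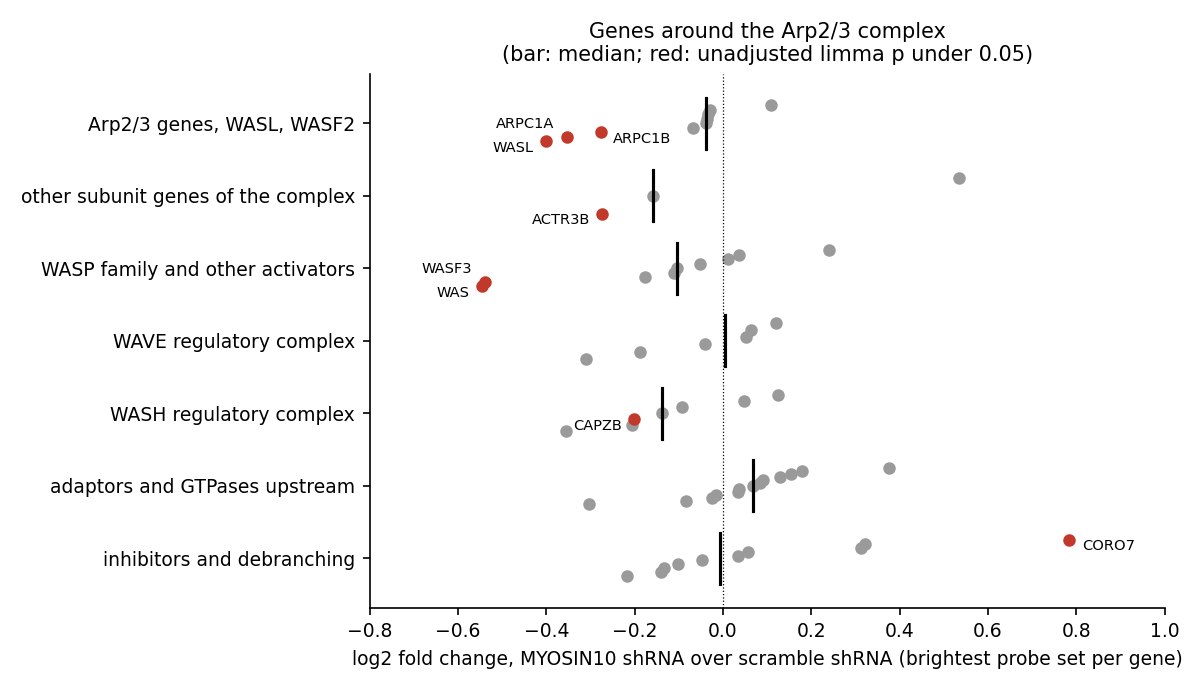
Difference between the groups on the log2 scale for the brightest probe set of each gene, with the 9 measured members in the top row and the 6 lists below, and the median of each row as a bar. WASL, ARPC1A, ARPC1B, ACTR3B, WASF3, WAS and CAPZB (red, unadjusted p under 0.05) lie left of 0, and CORO7 lies right of it.

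Over the 6 arrays, the brightest WASL probe set was compared with the brightest probe set of 14173 other genes by Pearson's r, as a description. The closest were PAIP2 (r = 0.994), PIK3R5 (0.994), NBR1 (0.992), RNF44 (0.992) and KCTD4 (0.992). Like WASL, all 5 had lower knockdown than scramble arrays without overlap. This follows largely from their choice, since the groups of this WASL probe set were already apart. Their differences ran from -0.23 (NBR1) to -1.20 (KCTD4), none of them called (limma adjusted p from 0.0742 to 0.444). The genes were ranked from 14173 on 6 arrays, so no test accompanies these values. Among the members, ARPC1A had r = 0.97 with WASL, which 0.395% of the genes reached or passed. The groups were apart in each of these probe sets, so this r partly restates their differences between the groups. ARPC1B had an r of 0.84 with WASL and ARPC3 of -0.78, and the brightest probe sets of ACTR3, ARPC2, ARPC5, ARPC5L and WASF2 lay between 0.17 and 0.47. The points share the same 6 arrays and the same scaling.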

How the data were processed

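Messenger RNA of 6 MDA-MB-231 samples was measured on 1-colour 3' arrays of 54675 probe sets. The authors deposited signals on a log2 scale, as their values show. MAS5 is named in the submitters' processing notes, and its version and target level were not given in the sources used here. MAS5 scales each array to a common level, so a change of total RNA per cell would not show. The signals were made linear, raised by 16 and logged again (base 2). Probe sets at or above the 40th percentile of the array on 3 or more of the 6 arrays were kept. Symbols were updated by Entrez number through RefSeq (GRCh38.p14). Across all 33370 kept probe sets, limma 3.58.1 in R 4.3.3 (lmFit, eBayes with trend, two-sided) compared the groups, with Benjamini-Hochberg adjustment. The fit was also run on simulated independent normal values, with spreads drawn from its own model. That checks the code and does not cover how real arrays depart from the model. Figures used Python 3.11.15 and matplotlib 3.10.9.

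The members, gene lists and tests were chosen with earlier results of these data known. Text names all members, MYO10, from each list the called genes and the 2 with smallest p (brightest probe sets), and the 5 genes most like WASL. The planned balance of ACTR3 to ACTR2 could not be run. Alternatives covered the pseudocount, filter, scaling, variance model, array weights, replicate block, arrays left out and 1 probe set per gene. Arrays give no read depth.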

Additional observations from a re-analysis of the deposited data

How the results depend on the processing

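The number of probe sets called, 353 as reported, was 173 without the filter on dim signals, 0 without the variance trend (4 member probe sets then had an unadjusted p under 0.05), 949 with array weights, 891 with the replicate block, 1655 without both arrays numbered 2 and 229 with 1 probe set per gene. Leaving out 1 array gave 59 to 1466. Member probe sets called, 0 as reported, were 4 with array weights (2.84% of all called), 1 with the filter at the 60th percentile (2.12%; ACTR3 228603_at, limma adjusted p = 0.0476) and 3 without both arrays numbered 2 (4.96%); leaving out 1 array gave 0 to 3. With array weights these were ARPC1A, ARPC1B, WASL and ACTR3 228603_at. Same-numbered arrays deviated together with correlations of 0.033, 0.12 and 0.013. The arrays numbered 2 matched each other best, but not every array matched its own number best. Neither these values nor the labels settle whether the numbers pair the samples, and the fit as reported does not pair them. The replicate block called 4 members (2.67% of all), the same genes as array weights.

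The median difference of the subunits ran from -0.10 to -0.034 when 1 array was left out and was negative in every setting; the median over all probe sets stayed within -0.012 and 0.0093. Over 415 fits of single member probe sets, 380 kept direction and side of the threshold, 15 gained a call and 20 turned sign. Without both arrays numbered 2, ARPC5 turned to 0.029 (1555797_a_at) and 0.0093 (211963_s_at). Leaving out 1 array turned the sign in ranges of -0.084 to 0.018 for ARPC5 1555797_a_at, -0.29 to 0.0029 for ARPC5 1569325_at, -0.068 to 0.036 for ARPC5 211963_s_at, -0.091 to 0.0024 for ACTR3 200996_at, -0.10 to 0.019 for ACTR3 213101_s_at, -0.085 to 0.11 for ACTR3 239170_at, -0.079 to 0.030 for ARPC2 208679_s_at, -0.091 to 0.037 for WASF2 224562_at, -0.15 to 0.0026 for ARPC5L 226914_at, -0.026 to 0.048 for ARPC5L 226915_s_at and -0.56 to 0.046 for CYFIP2. The balance of ARPC5L to ARPC5 ran from -0.075 to 0.0090 when 1 array was left out. WASF3 was called in 9 of 18 settings, the replicate block included, and MYO10 lost its call in 7 of 18. The gap between the lowest scramble and the highest knockdown array in the subunits' median deviation, 0.0199, turned to -0.0076 with each array's median over all probe sets subtracted.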
